A study of Mus musculus with 20 samples.

Results

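The heat shock chaperones described here are 9 chaperone genes and their transcriptional activator, chosen by gene symbol: Hspa1a, Hspa1b, Hspb1, Hspb8, Dnajb1, Hsph1, Hspa8, Hsp90aa1, Hsp90ab1 and Hsf1. They were chosen with earlier results of these data known. All 10 were among the 14633 genes of the deposited table, and all 10 were among the 14385 genes that passed the filter on low values (at least 1 FPKM in at least 5 libraries). Poly-A RNA of subcutaneous tumors was sequenced 4 weeks after HEPA1-6 cells, a mouse hepatoma line, were injected into C57/BL6 mice. The groups were anti-CXCL10 antibody plus GSK343 (n = 5 libraries), anti-CXCL10 antibody alone (n = 5), control antibody plus GSK343 (n = 5), and control antibody alone (n = 4, since replicate 4 was not analysed here). Every tumor in all 4 groups received an antibody. GSK343 inhibits EZH2, the histone H3 lysine 27 methyltransferase, and CXCL10 is a chemokine that draws T cells. The labels give no dose, treatment length, antibody isotype, vehicle or mouse number. The labels number 5 replicates in a group, but the design text of the series counts 3 biological replicates, and no source used here says how these fit together. Whether each library came from its own mouse is therefore unknown, and p-values reflect library-to-library spread that could in part be technical.

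Heat shock proteins bind unfolded polypeptides and keep them from clumping. HSP70 proteins work in an ATP-driven cycle that J-domain proteins start and nucleotide exchange factors reset, HSP90 proteins finish the folding of kinases and receptors, and small heat shock proteins hold unfolded proteins until HSP70 can act. When unfolded proteins build up, the factor HSF1 is activated, binds heat shock elements in promoters and raises transcription of the inducible members, whereas Hspa8 and Hsp90ab1 are made in most cells at all times. Tumor cells commonly depend on this system. A heat shock element is built from inverted repeats of the unit GAA, and HSF1 binds as a trimer to adjoining units.

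The upstream sequences are shown for the 3 members that were higher with GSK343 under control antibody and for 2 members that did not pass there, Hsph1, which also holds the element, and Dnajb1, in which it was not found. They are the 150 bases before the annotated start, from RefSeq on GRCm38.p6, 5′ to 3′ on the gene's own strand. Capitals mark an inverted pair of units, GAANNTTC or TTCNNGAA, each of which reads the same on both strands. The stretch of Hspa1a is chr17:34972157-34972306 (minus strand), that of Hspa1b chr17:34959239-34959388 (minus strand), that of Hspb1 chr5:135887769-135887918 (plus strand), that of Hsph1, from the more upstream of its 2 starts, chr5:149636337-149636486 (minus strand) and that of Dnajb1 chr8:83608025-83608174 (plus strand).
Hspa1a: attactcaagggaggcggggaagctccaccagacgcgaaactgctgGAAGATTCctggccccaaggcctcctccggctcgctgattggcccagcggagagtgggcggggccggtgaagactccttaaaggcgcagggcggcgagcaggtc
Hspa1b: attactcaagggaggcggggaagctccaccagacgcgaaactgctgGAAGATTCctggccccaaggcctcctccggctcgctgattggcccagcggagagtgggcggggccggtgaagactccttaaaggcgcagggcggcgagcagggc
Hspb1: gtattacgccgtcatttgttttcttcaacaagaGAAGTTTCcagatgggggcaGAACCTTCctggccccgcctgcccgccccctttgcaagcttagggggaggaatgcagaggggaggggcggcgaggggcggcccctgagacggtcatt
Hsph1: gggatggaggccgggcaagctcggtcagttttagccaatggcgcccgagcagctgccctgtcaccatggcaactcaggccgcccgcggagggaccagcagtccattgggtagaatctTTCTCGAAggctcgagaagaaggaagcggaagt
Dnajb1: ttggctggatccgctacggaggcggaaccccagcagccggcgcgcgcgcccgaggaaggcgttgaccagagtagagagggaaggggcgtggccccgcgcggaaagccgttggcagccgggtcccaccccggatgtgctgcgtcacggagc

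RefSeq promoter entries were found for 6 members, with 8 starts, and the 250 bases before each start were searched. The pair of units lay at -104 to -97, counted in bases from the start, in both Hspa1a and Hspa1b. Hspb1 held 2 pairs, at -117 to -110 and at -97 to -90. Hsph1 held 1 pair, at -54 to -47 or at -33 to -26 depending on which of its 2 starts was used, so a pair was found both in members that passed the test with GSK343 under control antibody and in one that did not. No pair was found within the 250 bases before the 2 starts of Dnajb1 or the start of Hspb8, which says only that these letters are not in that window. Among all 32851 promoters of the table, 12.8% held a pair in a window of the same length. A run of 3 units, in which both patterns overlap, occurred in 0.466% of all promoters and in 0 of the 8 searched here. A match is a description of the letters and not evidence of HSF1 binding in these tumors.

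**Figure D1:**
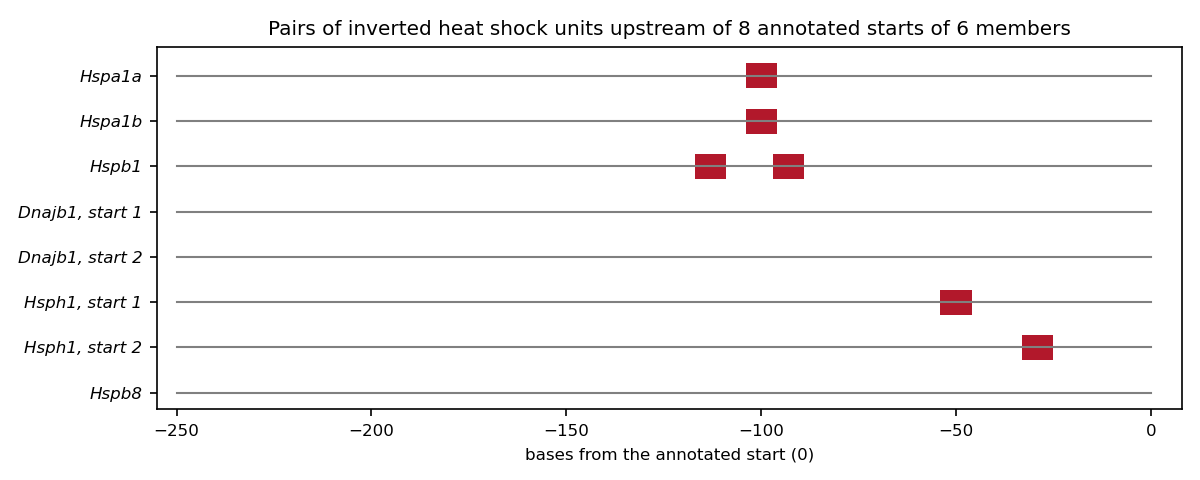
Position of inverted pairs of heat shock units (bars) in the 250 bases before 8 annotated starts of 6 members, with distance from the start in bases on the x axis. Hspa1a and Hspa1b each carry a pair at the same distance, Hspb1 carries 2, both Hsph1 starts share 1 pair, and Dnajb1 and Hspb8 show none.

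Levels are given in FPKM, fragments scaled to transcript length and to the mapped total, which are per length and so can be compared between genes. Sequencing depth is unknown, so no counting error can be attached to a level. Library FPKM sums ran from 533606 to 629679, correlations within groups from 0.942 to 0.977, and no columns were identical. All 12 hepatoma markers were detected in every library, with summed levels of 6872 to 11294 FPKM in anti-CXCL10 plus GSK343, 7543 to 11610 FPKM in anti-CXCL10, 4612 to 6745 FPKM in control antibody plus GSK343 and 7176 to 9002 FPKM in control antibody tumors. Libraries 3, 4 and 5 of control antibody plus GSK343 were the highest in skeletal muscle markers, with mean log2(FPKM + 1) scores of 4.61, 6.56 and 4.41 over 17 genes. The other 16 libraries lay between 0.34 and 3.74 on that score, with anti-CXCL10 library 4 at the upper end. Libraries 3 and 5 lay nearer to that library than to library 4 of their own group. In library names the sample numbers run from 1 to 10 within the control antibody libraries and again from 1 to 10 within the anti-CXCL10 libraries, so antibody and numbering series cannot be told apart in any comparison across antibodies.

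Mean levels over the 19 libraries separated 2 abundant members from the rest. Hsp90ab1 (ENSMUSG00000023944, chr17:45567775-45573271, minus strand), the constitutive HSP90, averaged 857 FPKM and ranked 101 of all genes. Hspa8 (ENSMUSG00000015656, chr9:40800984-40805200, plus strand), the constitutive HSP70, averaged 819 FPKM and ranked 108. Hsp90aa1 (ENSMUSG00000021270, chr12:110690605-110702728, minus strand), the inducible HSP90, followed at 124 FPKM. The other 7 averaged between 10.3 and 48.8 FPKM, with Hspb8 at the top and Hspb1 at the bottom. Spread was wide in only some of the less abundant genes. The highest library exceeded the lowest 60.1-fold for Hspa1a, 58.6-fold for Hspa1b and 16.8-fold for Hspb1, but at most 3.50-fold for each of the other 7. Among those 7, it was 1.23-fold for Hspb8 and 1.52-fold for Hsf1. All coordinates are those of the deposited table on GRCm38.

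The inducible HSP70 genes Hspa1a (ENSMUSG00000091971, chr17:34969190-34972156, minus strand) and Hspa1b (ENSMUSG00000090877, chr17:34956436-34959238, minus strand) were highest in control antibody plus GSK343 tumors. Hspa1a stood at 11.2, 8.63, 6.02, 10.8 and 9.64 FPKM in anti-CXCL10 plus GSK343 libraries 1 to 5. It stood at 23.2, 13.9, 25.3, 10.3 and 9.59 FPKM in anti-CXCL10, at 13.6, 13.1, 91.5, 67.7 and 34.0 FPKM in control antibody plus GSK343, and at 5.04, 14.1, 6.26 and 1.52 FPKM in control antibody libraries 1, 2, 3 and 5. Libraries 3, 4 and 5 of control antibody plus GSK343 were thus above every other library in the study, while libraries 1 and 2 of that group lay just under the highest control antibody library. Hspa1b had the same order of group means at slightly higher levels, with 8.22 to 14.3 FPKM in anti-CXCL10 plus GSK343, 11.7 to 32.9 FPKM in anti-CXCL10, 16.8 to 116 FPKM in control antibody plus GSK343 and 1.99 to 19.6 FPKM in control antibody.

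These 2 genes are near-identical copies. Their longest open reading frames, of 1926 and 1929 bases, were 99.4% identical with 11 differing positions, and the 250 bases upstream shown in part above differed at 3 positions. Of all 50-base stretches in the Hspa1a transcript, 58.8% also occurred in Hspa1b, and 62.3% of those in Hspa1b occurred in Hspa1a. No source used here says how the authors assigned shared fragments, so the split between the copies is uncertain and their values are not independent. If shared fragments were dropped, both copies, their sum and its percent of Hspa8 would also be too low. The Hspa1b to Hspa1a ratio of FPKM was 1.32 ± 0.039 in anti-CXCL10 plus GSK343, 1.29 ± 0.077 in anti-CXCL10, 1.28 ± 0.040 in control antibody plus GSK343 and 1.26 ± 0.11 in control antibody (SD), with overlapping ranges in all 4 groups. Hspa1a also overlaps Gm20481, a gene annotated on the opposite strand, and no source used here says whether the counting used strand.

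Added together, the 2 copies averaged 21.5 ± 4.59 FPKM in anti-CXCL10 plus GSK343, 38.0 ± 17.6 FPKM in anti-CXCL10, 99.7 ± 78.3 FPKM in control antibody plus GSK343 and 15.5 ± 12.9 FPKM in control antibody (SD, n = 5, 5, 5 and 4). Set against the constitutive HSP70, the sum was 2.77 ± 0.61% of Hspa8 in anti-CXCL10 plus GSK343, 4.54 ± 1.73% in anti-CXCL10, 11.8 ± 9.41% in control antibody plus GSK343 and 1.78 ± 1.39% in control antibody. The largest single value was 25.8%, in control antibody plus GSK343 library 3. The group order by mean was therefore control antibody plus GSK343, anti-CXCL10, anti-CXCL10 plus GSK343, control antibody. Among neighbours in it, neither anti-CXCL10 plus GSK343 against anti-CXCL10 nor anti-CXCL10 plus GSK343 against control antibody passed the test for either copy.

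Among the small heat shock proteins, Hspb1 (ENSMUSG00000004951, chr5:135887919-135889563, plus strand), the HSP25 of mouse and a holdase of unfolded proteins and actin filaments, varied with the HSP70 copies and Hspb8 did not. Hspb1 stood at 5.29, 5.78, 3.03, 4.86 and 4.36 FPKM in anti-CXCL10 plus GSK343 libraries 1 to 5 and at 11.0, 6.17, 14.0, 8.89 and 4.10 FPKM in anti-CXCL10 libraries. It stood at 12.3, 11.4, 16.0, 47.4 and 20.0 FPKM in control antibody plus GSK343 libraries, against 3.34, 9.92, 5.69 and 2.82 FPKM in control antibody libraries. Every control antibody plus GSK343 library was above every control antibody library and above every anti-CXCL10 plus GSK343 library. Hspb8 (ENSMUSG00000041548, chr5:116408491-116422864, minus strand), which works with the co-chaperone Bag3 in clearing misfolded proteins, spanned only 44.1 to 54.3 FPKM over all 19 libraries. Its group means were 48.0 ± 1.65 FPKM in anti-CXCL10 plus GSK343, 50.1 ± 3.65 FPKM in anti-CXCL10, 47.4 ± 3.80 FPKM in control antibody plus GSK343 and 49.7 ± 4.00 FPKM in control antibody (SD).

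The helpers of HSP70 moved less. Dnajb1 (ENSMUSG00000005483, chr8:83608175-83611902, plus strand), a J-domain protein that starts the HSP70 cycle, stood at 27.0, 22.4, 20.6, 24.6 and 21.0 FPKM in anti-CXCL10 plus GSK343 libraries and at 28.9, 28.3, 36.7, 26.3 and 29.7 FPKM in anti-CXCL10 libraries. It stood at 36.4, 26.4, 64.4, 44.2 and 33.0 FPKM in control antibody plus GSK343 libraries, against 24.9, 38.8, 27.0 and 26.3 FPKM in control antibody libraries. The 3 lowest libraries were all anti-CXCL10 plus GSK343, and the highest value was again control antibody plus GSK343 library 3. Hsph1 (ENSMUSG00000029657, chr5:149614287-149636376, minus strand), the HSP110 that exchanges nucleotide on HSP70, averaged 27.7 ± 7.44 FPKM in anti-CXCL10 plus GSK343, 29.5 ± 6.59 FPKM in anti-CXCL10, 33.6 ± 5.39 FPKM in control antibody plus GSK343 and 34.0 ± 7.25 FPKM in control antibody (SD), and all 4 groups overlapped.

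The constitutive chaperones were nearly level. Hspa8 averaged 782 ± 68.3 FPKM in anti-CXCL10 plus GSK343, 822 ± 96.7 FPKM in anti-CXCL10, 840.3 ± 52.9 FPKM in control antibody plus GSK343 and 836 ± 121 FPKM in control antibody. Hsp90ab1 averaged 862 ± 25.4 FPKM in anti-CXCL10 plus GSK343, 851 ± 37.6 FPKM in anti-CXCL10, 835 ± 122 FPKM in control antibody plus GSK343 and 883 ± 65.4 FPKM in control antibody. Together these 2 genes made up 87.9% of the summed FPKM of the 9 chaperones in anti-CXCL10 plus GSK343, 85.5% in anti-CXCL10, 81.3% in control antibody plus GSK343 and 87.2% in control antibody. The snoRNA genes Snord14c, Snord14d and Snord14e lie within Hspa8 and are listed in the table, so part of its fragments could be shared with them. Hsp90aa1 averaged 103 ± 28.7 FPKM in anti-CXCL10 plus GSK343, 128 ± 24.9 FPKM in anti-CXCL10, 147 ± 71.1 FPKM in control antibody plus GSK343 and 119 ± 26.3 FPKM in control antibody, and its highest value, 268 FPKM, was control antibody plus GSK343 library 1. That library had 13.6 FPKM of Hspa1a and 12.3 FPKM of Hspb1.

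Hsf1 (ENSMUSG00000022556, chr15:76477445-76500972, plus strand), the activator, was present at a low and even level, from 14.6 to 22.2 FPKM over the 19 libraries. Its means were 17.2 ± 1.79 FPKM in anti-CXCL10 plus GSK343, 16.5 ± 1.59 FPKM in anti-CXCL10, 16.5 ± 1.47 FPKM in control antibody plus GSK343 and 18.8 ± 2.55 FPKM in control antibody (SD). HSF1 is known to be controlled mainly after translation, which transcript levels do not show. The 9 chaperones summed to 1871 ± 107 FPKM in anti-CXCL10 plus GSK343, 1957 ± 141 FPKM in anti-CXCL10, 2065 ± 173 FPKM in control antibody plus GSK343 and 1972 ± 70.1 FPKM in control antibody. Within that sum, Hspa1a, Hspa1b and Hspb1 together took 1.40 ± 0.28% in anti-CXCL10 plus GSK343, 2.36 ± 0.94% in anti-CXCL10, 5.86 ± 4.08% in control antibody plus GSK343 and 1.04 ± 0.76% in control antibody.

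**Figure D2:**
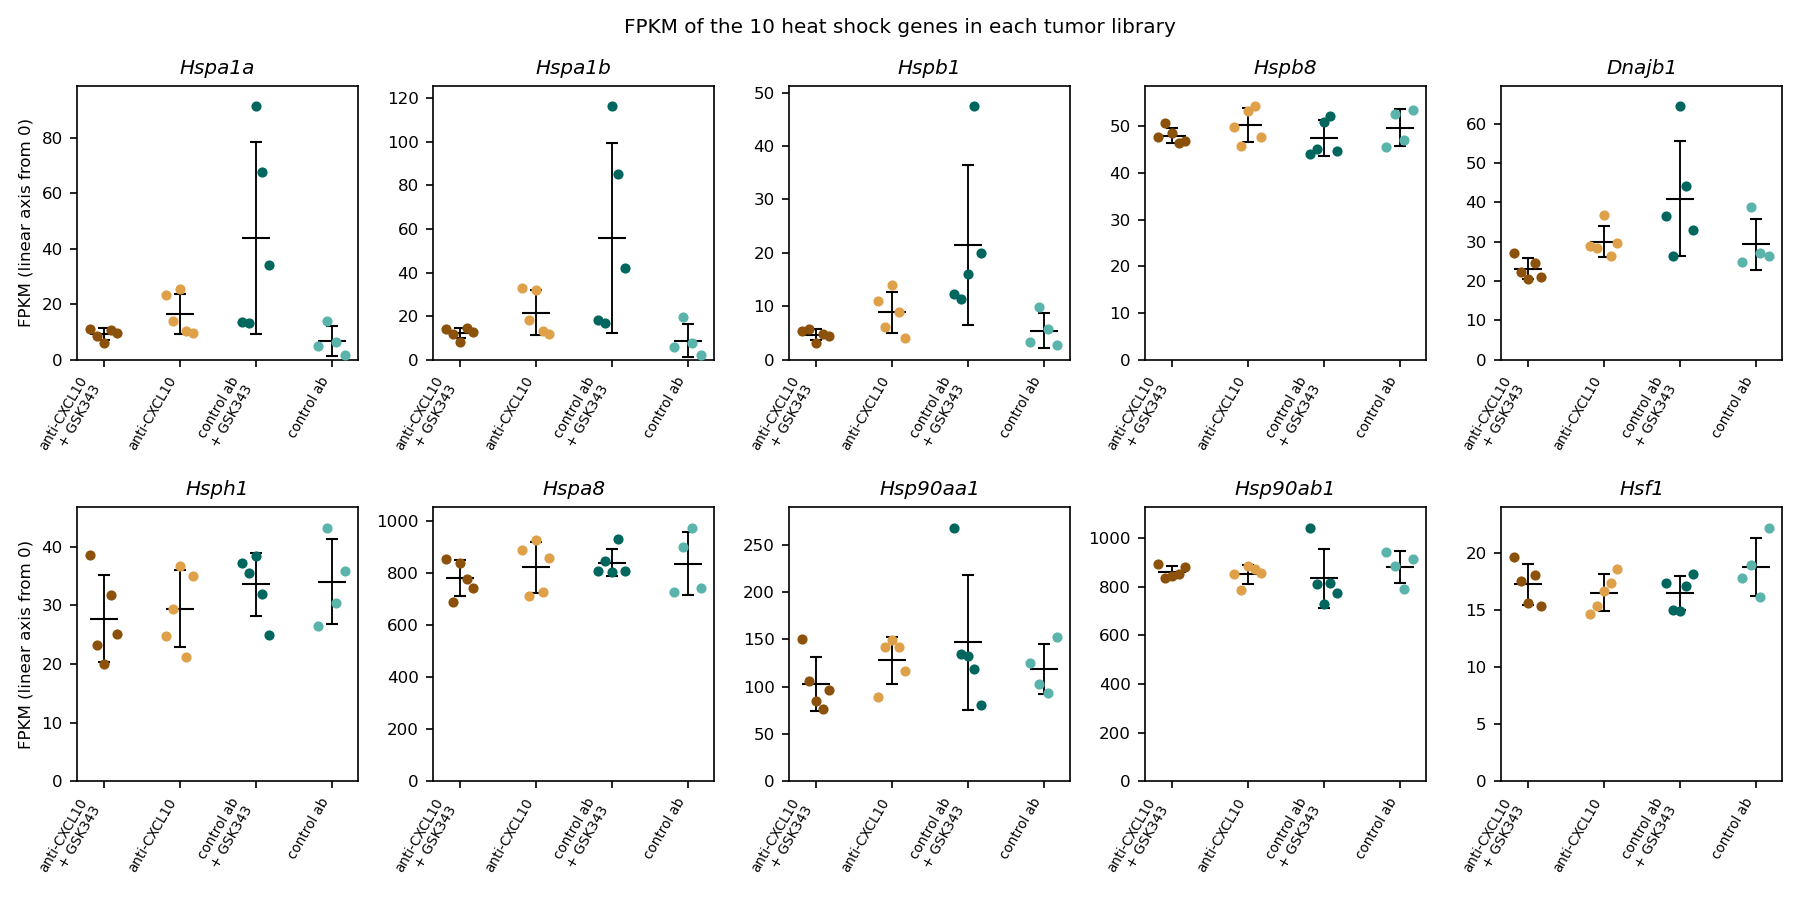
FPKM (linear axis from 0) of the 10 genes in each of the 19 libraries by group, with the group mean and SD as black bars. Hspa1a, Hspa1b and Hspb1 are highest in control antibody plus GSK343 tumors and spread widely there (Hspa1a 13.1 to 91.5 FPKM), while Hspb8, Hspa8 and Hsf1 stay nearly level.

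The first comparison asks what GSK343 did under control antibody. Of the 10 genes, 3 were higher in control antibody plus GSK343 tumors than in control antibody tumors: Hspa1a, Hspa1b and Hspb1. Hspa1a averaged 44.0 ± 34.6 FPKM with GSK343 and 6.74 ± 5.31 FPKM without it, a log2 change of 2.41 ± 0.55 (SE) on the log2(FPKM + 1) scale (limma, Benjamini-Hochberg adjusted p = 0.0159). Hspa1b averaged 55.7 ± 43.7 FPKM in control antibody plus GSK343 and 8.75 ± 7.63 FPKM in control antibody, a log2 change of 2.48 ± 0.56 (adjusted p = 0.0163). Hspb1 averaged 21.4 ± 14.9 FPKM in control antibody plus GSK343 and 5.44 ± 3.24 FPKM in control antibody, a log2 change of 1.73 ± 0.39 (adjusted p = 0.0144). Hspa1a and Hspa1b in all 5 GSK343 libraries lay above the control antibody mean, and 3 of the 5 lay above every control antibody library.

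The remaining 7 genes did not pass in that comparison. Dnajb1 had a log2 change of 0.43 ± 0.19 (limma adjusted p = 0.228), and the other 6 lay between -0.17 for Hsf1 and 0.22 for Hsp90aa1. The 95% intervals were narrow for the constitutive members, -0.21 to 0.24 for Hspa8 and -0.28 to 0.10 for Hsp90ab1, and wide for Hsp90aa1, -0.35 to 0.78. Over all 14385 genes tested, 4.36% were called higher by limma, against 3 of the 10 here, where the 2 copies are not independent. Since the 10 were chosen with earlier results of these data known, the contrast with all genes is a description only. With the copies added together, 2 of 9 were called, Hspb1 and the sum (log2 change 2.56 ± 0.58, limma adjusted p = 0.0165). Groups did not overlap for 1 of the 10, Hspb1, and 4.05% of all genes were higher without overlap. The median change was 0.12 over the 10 genes, 0.02 over the 9 with the copies added together, and -0.03 over all genes.

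These 3 calls rested on few libraries. Without control antibody library 1, the limma adjusted p was 0.0549 for Hspa1a, 0.0603 for Hspa1b and 0.0619 for Hspb1, and without control antibody library 5 it was 0.0686, 0.0702 and 0.0614. When the fit held only the 2 compared groups, 0 of the 10 genes passed in limma, with adjusted p of 0.0995, 0.0982 and 0.0755 for the same 3 genes. Without control antibody plus GSK343 libraries 3, 4 and 5, those high in muscle markers, 2 libraries of that group were left, and the log2 changes were 1.17 for Hspa1a (limma adjusted p = 0.337), 1.26 for Hspa1b (0.336) and 1.12 for Hspb1 (0.240). None of the 3 passed there, and 14 genes passed in all, against 787 with every library.

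The second comparison asks what GSK343 did when CXCL10 was blocked. None of the 10 genes passed in anti-CXCL10 plus GSK343 against anti-CXCL10 (limma; 0 of the 10 at an unadjusted p under 0.05), and 0% of all 14385 genes passed (418, or 2.91%, at an unadjusted p under 0.05). Hspa1a averaged 9.27 ± 2.09 FPKM with GSK343 and 16.5 ± 7.34 FPKM without it, a log2 change of -0.69 ± 0.52. Hspb1 averaged 4.66 ± 1.05 FPKM in anti-CXCL10 plus GSK343 and 8.83 ± 3.91 FPKM in anti-CXCL10, a log2 change of -0.72 ± 0.36 with a 95% interval of -1.48 to 0.05. Dnajb1 had a log2 change of -0.36 ± 0.18. All 5 anti-CXCL10 plus GSK343 libraries were below the anti-CXCL10 mean for each of these genes and for Hspa1b.

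Whether the change with GSK343 differed between the antibodies was tested as an interaction. The change under anti-CXCL10 minus that under control antibody was -2.45 ± 0.53 for Hspb1 (limma adjusted p = 0.0848), -3.10 ± 0.75 for Hspa1a (0.0937), -3.15 ± 0.77 for Hspa1b (0.0980) and -0.79 ± 0.26 for Dnajb1 (0.203) on the log2 scale. None of the 10 passed in limma, and 0.0626% of all genes did. At an unadjusted p under 0.05 there were 4 of the 10 and 12.9% of all genes. A difference between the antibodies in the response to GSK343 was thus not established for any of the 10. Leaving out control antibody plus GSK343 library 1 brought 3 past the threshold, with limma adjusted p of 0.0248 for Hspa1a, 0.0268 for Hspa1b and 0.0237 for Hspb1. Calls over all genes grew there too, to 472 of 14337, against 9 of 14385 with every library. Hspb1 also passed without anti-CXCL10 library 5 (limma adjusted p = 0.0429), where 57 genes passed in all.

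The third comparison sets the antibodies against each other in GSK343-treated tumors. It shares the control antibody plus GSK343 libraries with the first comparison, so the same high libraries enter both. Of the 10 genes, 4 were lower in anti-CXCL10 plus GSK343 than in control antibody plus GSK343. Hspb1 had a log2 change of -1.81 ± 0.36 (limma adjusted p = 0.00591), at means of 4.66 ± 1.05 FPKM in anti-CXCL10 plus GSK343 and 21.4 ± 14.9 FPKM in control antibody plus GSK343. Dnajb1 averaged 23.1 ± 2.70 FPKM in anti-CXCL10 plus GSK343 and 40.9 ± 14.6 FPKM in control antibody plus GSK343, a log2 change of -0.74 ± 0.18 (0.0153). Hspa1a had a log2 change of -1.76 ± 0.52 (0.0389). Hspa1b averaged 12.2 ± 2.51 FPKM in anti-CXCL10 plus GSK343 and 55.7 ± 43.7 FPKM in control antibody plus GSK343, a log2 change of -1.73 ± 0.53 (0.0473). For Hspa1a, Hspa1b and Hspb1 every anti-CXCL10 plus GSK343 library was below every control antibody plus GSK343 library, and for Dnajb1 4 of 5 were.

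Over all genes tested, 6.64% were called lower in that comparison, and 4.65% were lower without overlap between the groups, against 4 and 3 of the 10 here. This contrast too is a description only, given how the 10 were chosen. The median change was -0.36 over the 10 genes, -0.29 over the 9 with the copies added together, and 0.03 over all genes. Among the 6 genes that did not pass, Hsp90aa1 had a log2 change of -0.44 ± 0.25 (limma adjusted p = 0.290) and Hsph1 one of -0.29 ± 0.18 (0.340), and the other 4 lay between -0.11 and 0.06. With the copies added together, 3 of 9 passed, the sum with a log2 change of -1.78 ± 0.55 (limma adjusted p = 0.0478). Hspb1 and Dnajb1 passed whichever single library was left out. Hspa1a lost its call when any of 8 of the 19 libraries was left out (the limma adjusted p over all 19 omissions ran from 0.0149 to 0.102) and Hspa1b when any of 15 was (0.0214 to 0.123). Without control antibody plus GSK343 libraries 3, 4 and 5 none of the 4 passed: the log2 change was -1.20 for Hspb1 (limma adjusted p = 0.0993), -0.42 for Dnajb1 (0.180), -0.51 for Hspa1a (0.583) and -0.51 for Hspa1b (0.617). Over all genes 478 passed there, against 1456 with every library.

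Antibody alone, and the combination against control antibody, gave no call. Without GSK343, Hspa1a averaged 16.5 ± 7.34 FPKM in anti-CXCL10 and 6.74 ± 5.31 FPKM in control antibody, a log2 change of 1.35 ± 0.55 (limma adjusted p = 0.694), and Hspa1b had one of 1.42 ± 0.56 (0.684). None of the 10 passed in limma, and 0.0139% of all genes did. At an unadjusted p under 0.05 there were 2 of the 10, the HSP70 copies, and 6.81% of all genes. In anti-CXCL10 plus GSK343 against control antibody, the log2 change was 0.66 ± 0.55 for Hspa1a, 0.75 ± 0.56 for Hspa1b and -0.08 ± 0.39 for Hspb1. None of the 10 passed in limma, against 0.00695% of all genes, and 0 had an unadjusted p under 0.05, against 5.03% of all genes. The 95% interval for Hspa1a there, -0.50 to 1.81, still holds changes of more than 1 in size.

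**Figure D3:**
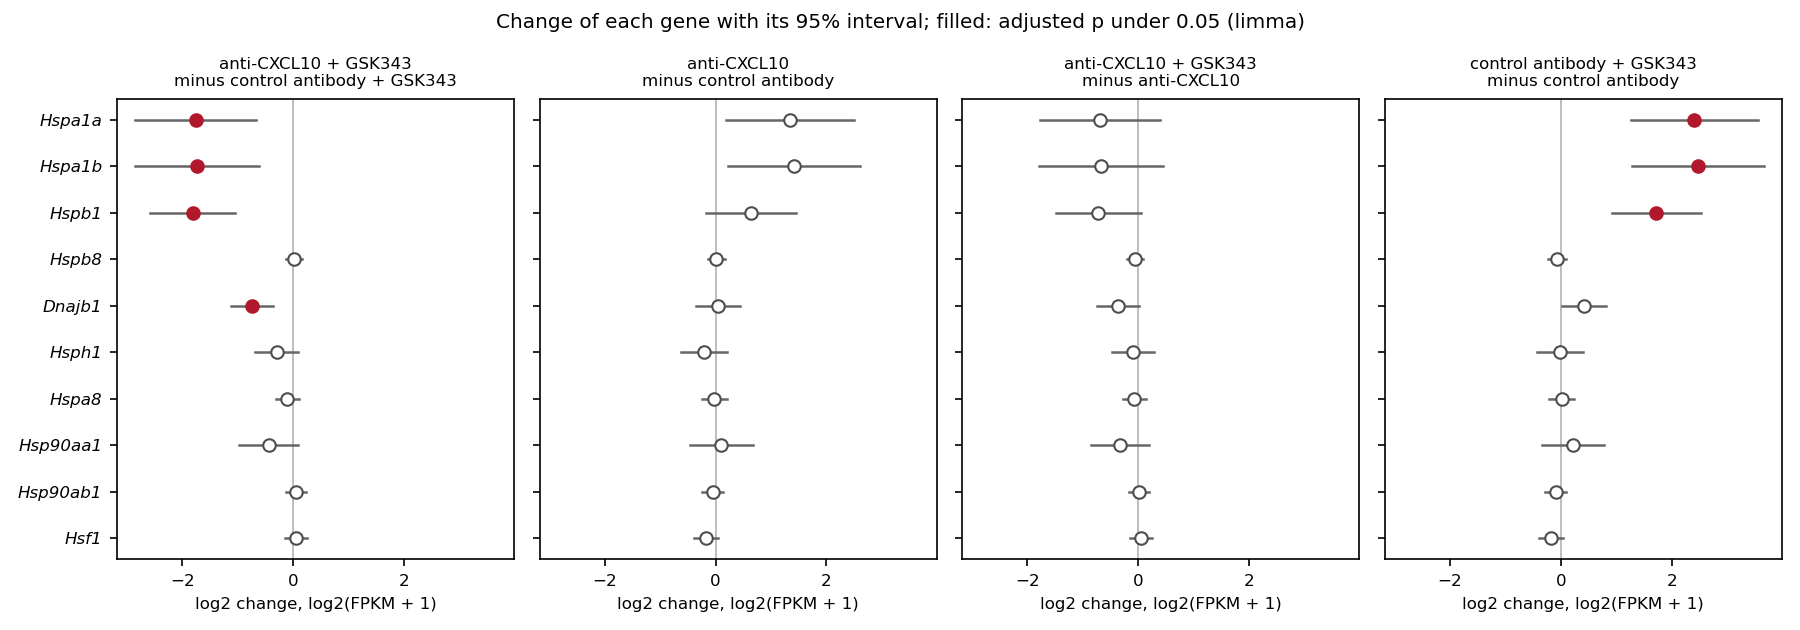
Log2 change of each of the 10 genes (log2(FPKM + 1), first group minus second) with its 95% interval in 4 comparisons, filled where the limma adjusted p is under 0.05. Filled points are Hspa1a, Hspa1b and Hspb1 for GSK343 under control antibody, and the same 3 with Dnajb1 for anti-CXCL10 plus GSK343 against control antibody plus GSK343, where all 4 lie below 0.

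Other measures moved along with the inducible genes, and their part in these differences was not tested beyond the values given. The 17 skeletal muscle markers in the table summed to 15.1 to 129 FPKM in anti-CXCL10 plus GSK343, 6.27 to 334 FPKM in anti-CXCL10, 54.4 to 2629 FPKM in control antibody plus GSK343 and 22.5 to 110 FPKM in control antibody. The number of these markers listed at 0 in at least 1 library was 4 in anti-CXCL10 plus GSK343, 6 in anti-CXCL10, 0 in control antibody plus GSK343 and 1 in control antibody. Over the 16 tested, the median change was 2.49 for GSK343 under control antibody and -2.51 for anti-CXCL10 with GSK343. Only 1 of the 16, Pvalb, passed in limma, higher in the former and lower in the latter. Of all genes, 4.36% were called higher in the former and 6.64% lower in the latter. Muscle actin Acta1 stood at 10.9, 21.7, 127, 673 and 151 FPKM in control antibody plus GSK343 libraries 1 to 5, and creatine kinase Ckm at 4.14, 5.33, 53.7, 243 and 51.1 FPKM. The 3 libraries highest in muscle markers were thus the 3 highest in Hspa1a, Hspa1b and Hspb1, though the highest for Hspb1 was library 4 and for Hspa1a library 3. Over the 19 libraries, which share these 3 points, Pearson's r with the muscle score was 0.66 for Hspa1a, 0.76 for Hspb1 and 0.57 for Dnajb1. After the group means were taken away it was 0.44, 0.59 and 0.31. For Hspb8, nearly level between groups, r was 0.40 before that step and 0.72 after it, the highest of the 10 genes. It was then below 0 for Hsph1 (-0.27), Hsp90aa1 (-0.37) and Hsp90ab1 (-0.24). With the muscle score in the model, 0 of the 10 genes passed in limma for GSK343 under control antibody and for anti-CXCL10 with GSK343, and calls over all genes fell to 6, against 787 without the score, and to 135, against 1456. The log2 changes for GSK343 under control antibody were then 1.76 for Hspa1a (limma adjusted p = 0.240) and 1.11 for Hspb1 (0.243). For anti-CXCL10 with GSK343 they were -1.11 for Hspa1a (limma adjusted p = 0.333), -1.20 for Hspb1 (0.111) and -0.58 for Dnajb1 (0.166). The score averaged 1.56 in anti-CXCL10 plus GSK343, 3.91 in control antibody plus GSK343 and 1.54 in control antibody. Score and group thus overlap in that model, which cannot separate them fully. In bulk tissue, fewer cells of a type and less RNA per cell cannot be told apart.

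Immediate early genes, transcribed soon after growth signals or injury, also varied. The score over 19 such genes (mean log2(FPKM + 1)) ran from 4.34 to 4.69 in anti-CXCL10 plus GSK343, from 4.72 to 5.22 in anti-CXCL10, from 5.21 to 5.80 in control antibody plus GSK343 and from 4.45 to 5.42 in control antibody. Pearson's r with this score over the 19 libraries was 0.87 for Dnajb1, 0.72 for Hspb1, 0.68 for Hspa1a and 0.59 for Hsph1. After the group means were taken away it was 0.73 for Dnajb1, 0.39 for Hspb1, 0.59 for Hspa1a and 0.56 for Hsph1. Of the 19 genes, 3 were higher in control antibody plus GSK343 than in control antibody (Klf2, Jun and Zfp36), with a median change of 0.41. In anti-CXCL10 plus GSK343 against control antibody plus GSK343, 13 of the 19 were lower, led by Zfp36 (-1.23 ± 0.20), Atf3 (-1.44 ± 0.24), Klf6 (-0.68 ± 0.13) and Nr4a1 (-0.83 ± 0.16), with a median change of -0.74. All these calls are limma's at an adjusted p under 0.05. Of all genes, 4.36% were called higher for GSK343 under control antibody and 6.64% lower for anti-CXCL10 with GSK343. The list was chosen with earlier results of these data known, so the contrast is a description only.

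**Figure D4:**
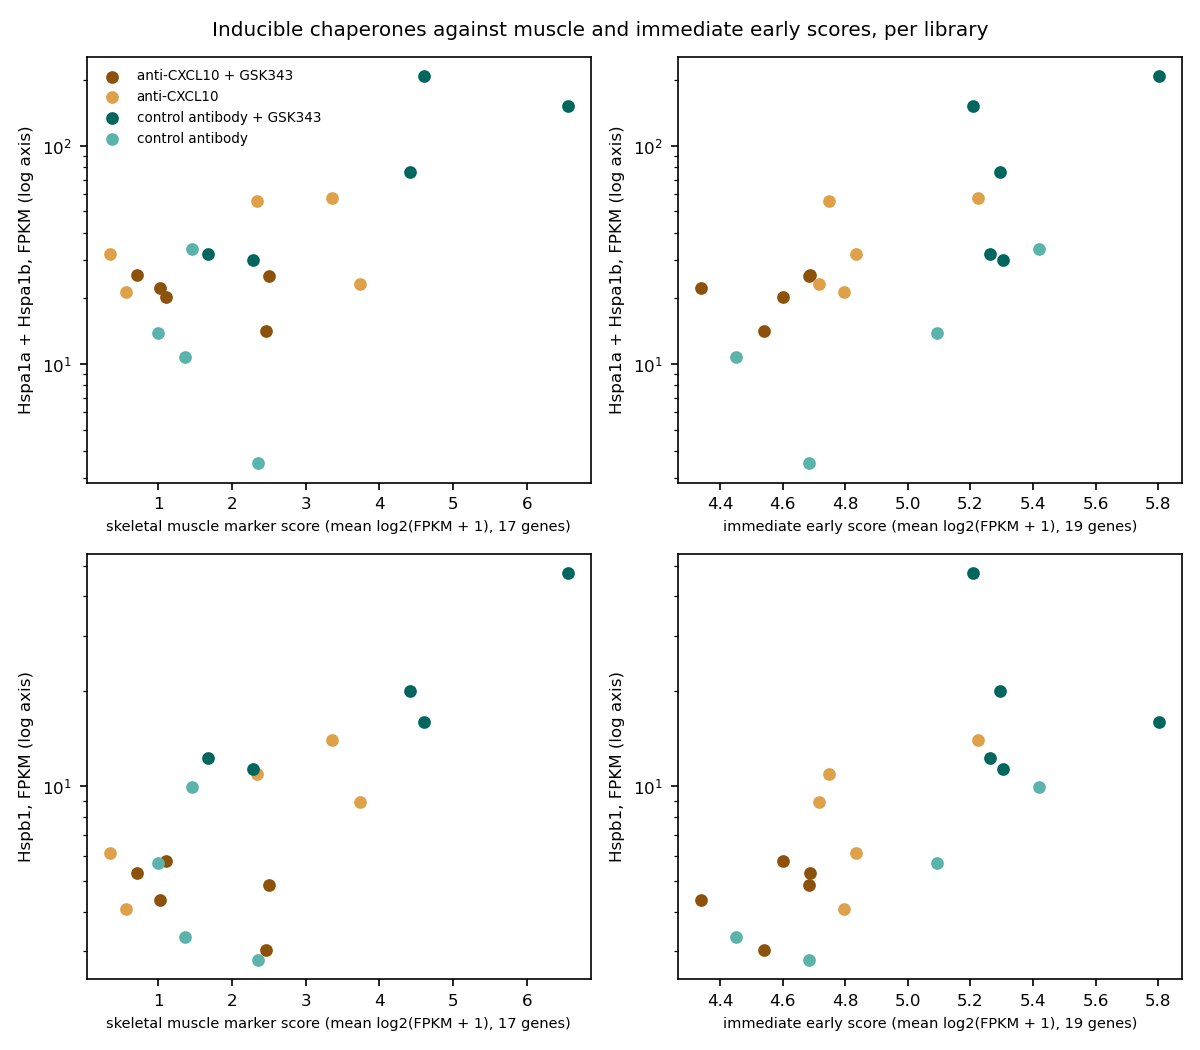
Hspa1a plus Hspa1b (top, FPKM, log axis) and Hspb1 (bottom, FPKM, log axis) against the skeletal muscle score (left) and the immediate early score (right), 1 point per library. The 3 control antibody plus GSK343 libraries with muscle scores over 4 carry the 3 highest values in each panel. The 5 anti-CXCL10 plus GSK343 libraries sit together at low immediate early scores. Control antibody libraries 1 (4.45) and 5 (4.68) lie within the same range of that score.

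Immune markers differed between the same groups. Of 12 T cell markers, 10 were higher in control antibody plus GSK343 than in control antibody, with Cd2, Lck, Cd3e and Cd3g first by p (log2 changes of 1.25 ± 0.22, 1.19 ± 0.21, 1.19 ± 0.22 and 1.27 ± 0.24). Of 9 macrophage markers 7 were higher, led by C1qc and Ms4a7. In anti-CXCL10 plus GSK343 against control antibody plus GSK343, 9 of 12 T cell and 7 of 9 macrophage markers were lower. Of all genes, 4.36% were called higher for GSK343 under control antibody and 6.64% lower for anti-CXCL10 with GSK343. The marker lists too were chosen with earlier results of these data known. Summed T cell markers were 67.3 to 98.0 FPKM in anti-CXCL10 plus GSK343, 57.6 to 91.0 FPKM in anti-CXCL10, 91.7 to 257 FPKM in control antibody plus GSK343 and 46.0 to 78.7 FPKM in control antibody. Of 12 hepatoma markers, 3 were lower in control antibody plus GSK343 than in control antibody, with a median change of -0.42. Of these 12, 0 had a change above 0. In anti-CXCL10 plus GSK343 against control antibody plus GSK343, 6 of the 12 were higher, with a median change of 0.51. There 11 had a change above 0. Shares of all genes were 1.11% lower and 3.48% higher, in that order. The part of these markers in the chaperone levels was not tested.

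The 10 genes did not vary as 1 block. After the group means were taken away, Pearson's r over the 19 libraries was 0.997 between the 2 HSP70 copies, 0.79 between Hspa1a and Dnajb1, 0.75 between Hspa1a and Hspb1, and 0.68 between the 2 HSP90 genes. Between Hspa1a and Hsp90aa1 it was -0.39, and between Hspa1a and Hsf1 -0.26. These are descriptions over points that share libraries, and 1 or a few libraries can set them. Among the 9581 other genes averaging at least 5 FPKM, the 6 most like the sum of Hspa1a and Hspa1b over the 19 libraries were Jun (r = 0.884), Klf2 (0.857), Rgs2 (0.840), Slc11a1 (0.837), Fos (0.822) and Gsap (0.817). Jun averaged 16.7 ± 2.67 FPKM in anti-CXCL10 plus GSK343, 22.3 ± 4.71 FPKM in anti-CXCL10, 37.0 ± 15.1 FPKM in control antibody plus GSK343 and 18.5 ± 8.57 FPKM in control antibody. Jun, Klf2 and Fos belong to the immediate early list.

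Most genes of the wider chaperone network did not pass the test in any comparison. Of 74 further chaperone genes listed (co-chaperones, the CCT ring, endoplasmic reticulum and mitochondrial chaperones, small heat shock proteins, HSF1 targets and HSF regulators), 70 were tested. In control antibody plus GSK343 against control antibody, 1 was higher and 2 were lower, with a median change of -0.08, and 4.36% of all genes were called higher and 1.11% lower. At an unadjusted p under 0.05 there were 13 of the 70 and 18.9% of all genes. The higher one was Dnaja4, a J-domain protein (1.65 ± 0.79 FPKM in control antibody plus GSK343 and 0.51 ± 0.33 FPKM in control antibody, log2 change 0.80 ± 0.20, limma adjusted p = 0.0267). The lower ones were Cct2, a CCT ring subunit (-0.22 ± 0.06, 0.0441), and Xbp1, a factor of the unfolded protein response (-0.39 ± 0.08, 0.00910).

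In anti-CXCL10 plus GSK343 against control antibody plus GSK343, 6 of the 70 were higher and 4 lower, with a median change of 0.06, and 3.48% of all genes were called higher and 6.64% lower. At an unadjusted p under 0.05 there were 17 of the 70 and 25.7% of all genes. The lower ones were Cryab, a small heat shock protein abundant in muscle (-1.19 ± 0.27, limma adjusted p = 0.0102), Dnaja4 (-0.83 ± 0.19, 0.0116), Bag3 (-0.38 ± 0.10, 0.0179) and Serpinh1, the collagen chaperone (-0.93 ± 0.25, 0.0246). These 4 are on the list of 20 HSF1 targets, of which 19 were tested, but 11 of the 19 had changes above 0, and the list's median change was 0.02, against 0.03 over all genes. The higher ones among the 70 were the CCT subunits Cct2, Cct6a and Cct3 (0.29 ± 0.06, 0.38 ± 0.09 and 0.27 ± 0.07), the endoplasmic reticulum chaperone Hyou1 (0.62 ± 0.15), Xbp1 (0.30 ± 0.08) and the HSP70 partner St13 (0.27 ± 0.07). Serpinh1 fell beside fibroblast markers, of which 4 of 8 were lower in the same comparison. In the other 4 comparisons 0 of the 70 passed in limma. At an unadjusted p under 0.05 there was 1 for GSK343 under anti-CXCL10, and there were 11 for the interaction, 5 for anti-CXCL10 without GSK343 and 1 for the combination against control antibody. The shares of all genes at that threshold in these comparisons were 2.91%, 12.9%, 6.81% and 5.03%.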

How the data were processed

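Poly-A RNA-seq of 19 tumor libraries in 4 groups was analysed, and groups came from the sample titles. The deposited values are FPKM per gene, a unit inferred from the values: sums weighted by gene length varied by 0.790% between columns (coefficient of variation), plain sums by 4.06%. The submitters' processing notes name builds mm10 and GRCm38 and the tools StringTie 1.3.3b, HTSeq 0.6.0, HISAT2 2.1.0, TopHat2 2.1.0 and Trimmomatic 0.33, with no role or order. Depth is unknown, since no whole-read steps were found among low values in 171 library pairs. The 14646 rows were added by gene ID to 14633 genes, and 248 with fewer than 5 libraries at 1 FPKM or more were removed. Values were tested as log2(FPKM + 1), which understates changes of low genes, with limma 3.58.1 (R 4.3.3, statmod 1.5.0; trend and robust moderation), fitting 4 group means to 19 libraries, for 6 comparisons, with Benjamini-Hochberg adjustment over 14385 genes and a threshold of 0.05. The script was tested on simulated data. Of the gene IDs, 99.3% were in GENCODE M21. Promoters came from RefSeq (GRCm38.p6) and the HSP70 transcripts from GENCODE M21. The members and gene lists were chosen with earlier results of these data known. Named genes are the 10 members, up to 4 genes per list by p among those past the threshold, and the 6 genes most like the HSP70 sum. Acta1, Ckm and Krt14 were named as markers after their values were seen. Alternatives were another pseudocount, other filters and scalings, the compared groups alone, a replicate block, merged HSP70 copies, a muscle covariate, and leaving out libraries.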

Additional observations from a re-analysis of the deposited data

Results flagged for a closer look

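Among 44 groups of 4 or 5 libraries examined (the 10 genes and the HSP70 sum in each of 4 groups), 4 held a library far from the others. With independent, normally distributed values, chance gives about 5% of groups such a library. The genes share libraries and the HSP70 sum repeats its copies, so that rate is only a rough guide here. Hspb1 was 47.4 FPKM in control antibody plus GSK343 library 4, the library highest in muscle markers, where the other 4 were between 11.4 and 20.0 FPKM. Dnajb1 was 38.8 FPKM in control antibody library 2, which also had the highest immediate early score (5.42) of its group of 4 and 205 FPKM of the keratin Krt14. Krt14 was highest in library 2 of each other group too, without a high Dnajb1. There Krt14 and Dnajb1 were 53.3 and 22.4 FPKM in anti-CXCL10 plus GSK343 and 41.7 and 28.3 FPKM in anti-CXCL10. In control antibody plus GSK343 they were 56.4 and 26.4 FPKM. Hsp90aa1 was 268 FPKM and Hsp90ab1 was 1044 FPKM in control antibody plus GSK343 library 1, each the highest of 5, while Hspa1a there was 13.6 FPKM.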

How the results depend on the processing

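The number of the 10 genes past the limma threshold was 3 for GSK343 under control antibody and 4 for anti-CXCL10 with GSK343. It was 0 and 0 with the muscle score as a covariate, 0 and 0 without the 3 libraries highest in muscle markers, and 0 and 2 with the compared groups only. Leaving out each library gave 0 to 3, 2 to 4, and 0 to 3 for the interaction. In the other 3 comparisons it was 0 under every alternative run. Whether replicate numbers pair the samples was not settled. For control antibody plus GSK343 replicates 1 to 5, the sample numbers in library names were 8, 9, 10, 6 and 7. In the other groups they rose with the replicate number. The check and the block below used the replicate numbers of the sample titles. Of 27 same-numbered pairs of libraries, 12 had r over 0.1 for deviations from group means, with a range of -0.20 to 0.32. Pairs of unlike number were not compared. With a replicate block, 3 and 2 genes passed, and the interaction had 57 calls over all genes, against 9. Small changes turned sign under some alternatives, and the cause was not tested. For Hsph1 under GSK343 with control antibody (-0.01), the change was 0.012 with median-ratio scaling, 0.00041 with quantile normalization, 0.011 with the replicate block, 0.13 with the muscle covariate and 0.12 without the 3 libraries. For Hspa8 (0.02) it was -0.0041 with quantile normalization, -0.027 with the covariate and -0.0033 without the 3 libraries. Without those 3, Hsp90ab1 stood at 0.063 under GSK343 and at -0.097 for anti-CXCL10 with GSK343. Leaving out each library, Hsph1 ran from -0.12 to 0.11, Hspa8 from -0.047 to 0.093 and Hsp90aa1 from -0.028 to 0.40 under GSK343 with control antibody, Dnajb1 from -0.025 to 0.19 for anti-CXCL10 without GSK343, Hspb8 from -0.0055 to 0.054 for anti-CXCL10 with GSK343, and Hspb1 from -0.29 to 0.22 for the combination against control antibody. Pseudocount 0.1 ended the call of Hspa1b for anti-CXCL10 with GSK343 (-1.79, adjusted p = 0.0568). The unknown depth leaves low values least certain.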
